A study of Homo sapiens with 2 samples.

Results

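The BRCA and Fanconi anaemia genes BRCA1, BRCA2, PALB2, BARD1, BRIP1, FANCA, FANCC, FANCD2, FANCI and FANCL were described in the human ovarian cancer cell line SKOV3 and in a derivative resistant to olaparib. Members were all entries of the deposited transcript table that carry 1 of these 10 gene symbols. They came to 43 of the 47892 listed transcripts and to 9 of the 16978 listed genes, and BRIP1 is not analysed here. The comparison asks how RNA from these repair genes differs between cells with and without acquired resistance to a PARP inhibitor.

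Total RNA was sequenced after depletion of ribosomal RNA from 2 samples, with 1 library per group. The parental sample is untreated SKOV3, and the resistant sample, SKOV3_OR, was derived from it by continuous exposure to olaparib at 0.5 times its IC50 for at least 3 months. Both carry the genotype label WT. SKOV3 is an epithelial line with amplified ERBB2 (HER2), and olaparib inhibits PARP enzymes, which act in the repair of DNA single-strand breaks. The labels do not say whether the resistant cells are 1 clone or a pool, nor whether olaparib was present at harvest. With 1 library per group there is no replicate spread and no test, so that every difference below describes these libraries and cannot be separated from variation between cultures or library preparations.

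The Fanconi anaemia pathway repairs DNA strands that are cross-linked to each other. A core complex, which includes FANCA, FANCC and the ubiquitin ligase FANCL, attaches ubiquitin to FANCD2 and FANCI, which clamp onto DNA and allow nucleases to cut out the cross-link. BRCA1 with its partner BARD1, PALB2, BRCA2 and the helicase BRIP1 then act in homologous recombination. Cells with defective homologous recombination are sensitive to PARP inhibitors, and regained recombination is a known route to resistance.

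The transcripts listed for these genes were not their mRNAs. By GENCODE release 29, 20 of the 43 were retained-intron transcripts, 21 were processed transcripts without an open reading frame and 2, BRCA1-OT1 and FANCC-OT1, were assembled transcripts with no entry there. None was protein-coding, and only 55 of the 43558 listed transcripts found in that release were, so this is a trait of the whole table. No value below is a level of the mRNA or of the protein. The introns kept in 3 of the highest transcripts are shown here because they are the part of those transcripts that the spliced mRNA lacks. In each sequence, exon bases are in lower case and intron bases in capitals, on the transcribed strand, from the GENCODE 29 transcript sequences on GRCh38.
FANCL-209, end of exon and start of intron 9, chr2:58163414-58163443, minus strand: gctgaccatgGTATGACATCTGAGATTTAA
FANCL-209, end of intron 9 and start of exon, chr2:58163065-58163104, minus strand: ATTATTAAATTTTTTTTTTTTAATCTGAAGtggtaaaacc
FANCL-209, whole intron 10 with exon ends, chr2:58162938-58163038, minus strand: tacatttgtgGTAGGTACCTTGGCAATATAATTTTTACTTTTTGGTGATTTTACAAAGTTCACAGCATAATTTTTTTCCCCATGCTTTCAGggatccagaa
FANCI-212, end of exon and start of intron 16, chr15:89281826-89281855, plus strand: tgtttgccaaGTATGTAGCATCTTTTTCTA
FANCI-212, end of intron 16 and start of exon, chr15:89283106-89283145, plus strand: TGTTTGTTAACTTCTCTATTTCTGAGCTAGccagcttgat
FANCA-207, end of exon and start of intron 24, chr16:89770544-89770573, minus strand: ccccggagagGTGAAGGCGCGGGCAGCTCC
FANCA-207, end of intron 24 and start of exon, chr16:89770250-89770289, minus strand: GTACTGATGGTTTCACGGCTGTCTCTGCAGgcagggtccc

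All 4 introns begin with GT and end with AG. FANCL-209 keeps introns 9 and 10 of FANCL-201, of 359 and 81 bases, and intron 10 is the shortest of the 13 introns of that coding transcript, whose median is 2206 bases. FANCI-212 keeps intron 16 of FANCI-202, of 1300 bases, and FANCA-207 keeps intron 24 of FANCA-202, of 304 bases. The G and C content was 28.7% in FANCL intron 9, 32.1% in FANCL intron 10, 35.9% in the FANCI intron and 56.9% in the FANCA intron.

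Each transcript has 1 expression value per library, called its listed value here, and its unit is named nowhere in the sources used. Multiplied by the length of the locus with its introns, the listed values followed the counts behind the deposited fold changes within a 90% width of 0.035 on the log2 scale, against 6.195 with exonic length, over 26229 transcripts. Except where a count was 0, count pairs were searched for near the value times locus length, so the contrast with exonic length is not independent. A listed value is read here as a level per locus length, so that a long locus lists a low value for the same count. The values summed to 47632 in SKOV3_OR and 46879 in parental SKOV3, and the sequencing depth is unknown. Over the 5767 genes with a mean summed value of at least 1, called expressed here, the median log2 ratio, resistant over parental with 1 added to each value, was 0.16. Ratios below are read against that shift. Of the epithelial and ovarian markers 7 of 9 were listed, led by KRT8 (318 resistant, 166 parental) and KRT7 (73.3 and 62.6). KRT18 was lower in the resistant library (5.83 and 14.3), as was ERBB2 (3.84 and 5.37), and EPCAM and KRT19 were near 0 in both. None of 6 leukocyte and none of 4 endothelial markers were listed, and 3 of 6 fibroblast markers summed to 0.325 and 0.324. Because the deposited table holds almost no protein-coding transcripts, an unlisted marker does not show that such cells were absent.

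FANCI and FANCL were higher in the resistant library and FANCA was lower. FANCC and FANCD2 lay within 0.12 of 0 on the log2 scale, below the median of 0.16 over all expressed genes. Of those genes, 32.3% had a lower ratio than FANCC and 30.7% a lower one than FANCD2. None of the 5 expressed members was past 2-fold in either direction. The background over all expressed genes was 12.9% past 2-fold, with 8.50% (490 genes) upward and 4.37% (252 genes) downward. These became 315 and 347 genes once the resistant library was divided by the median ratio of 1.17. The median log2 ratio of the 5 members was −0.09, with 2 above 0 and 3 below, where 3568 of all 5767 expressed genes were above 0. The other 4 listed members summed to less than 1 in mean value and were not counted, while BRCA1 had the largest proportional difference of all 9 at a low level. In bulk RNA, fewer cells of a type and less RNA per cell cannot be told apart.

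**Figure D1:**
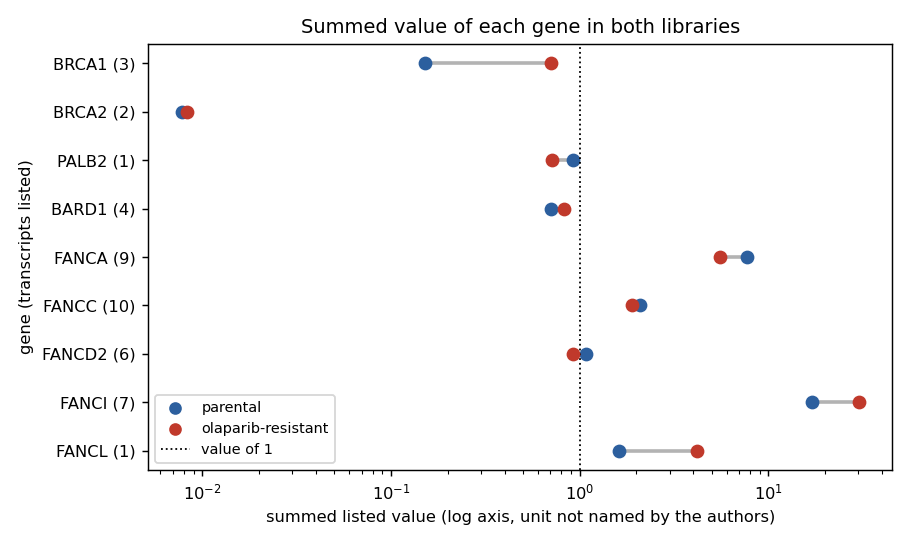
Summed listed value of each gene in the parental (blue) and resistant (red) library on a log axis, with the number of listed transcripts in parentheses and a dotted line at a value of 1. FANCI is the highest in both libraries, at 17.1 and 30.1, and BRCA1 and FANCL have the widest gaps towards the resistant library.

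In the core complex, FANCL carries the ubiquitin ligase activity. It was listed as a single transcript, FANCL-209, a retained-intron transcript of 2 exons and 733 bases at chr2:58162865-58165803, over the introns printed above. Its value was 4.21 in SKOV3_OR and 1.61 in parental SKOV3, a ratio of 2.61. FANCL thus had the highest ratio among the expressed members, and 91.4% of all expressed genes had a lower one. With 1 added to each value the log2 ratio was 0.995, just short of 2-fold, and with 0.1 added it was 1.33. The counts behind it were 585 and 325, and the authors' deposited table gives a log2 fold change of 1.10 with an adjusted p of 0.0233, which compares the libraries and not the conditions.

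FANCA, a scaffold subunit of the core complex, had 9 listed transcripts, all of the retained-intron type. They summed to 5.56 in SKOV3_OR and 7.72 in parental SKOV3, a log2 ratio of −0.41, and 16.5% of expressed genes had a lower ratio. FANCA was below 0 under each of the 11 alternative settings, from −0.60 to −0.27. Of its transcripts, 6 were lower and 3 higher, and those that were higher were among the least changed.

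The FANCA transcript with the highest parental value was FANCA-221, at chr16:89798354-89816647 over the first exons, with 1.19 in SKOV3_OR and 1.91 in parental SKOV3. It keeps intron 1 of FANCA-202, of 550 bases with a G and C content of 77.6%. FANCA-207, at chr16:89769915-89770583 and shown above by its intron 24, was instead higher in the resistant library, with 1.74 and 1.32. The authors' deposited table puts FANCA-207 at a log2 fold change of 0.13 with an adjusted p of 0.912, from counts of 56 and 61. Without this transcript FANCA summed to 3.82 and 6.40, a log2 ratio of −0.62.

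The other FANCA transcripts with a value of at least 0.5 in either library all pointed the same way. FANCA-227 had 0.910 in SKOV3_OR and 1.17 in parental SKOV3. FANCA-232 had 0.611 and 1.20, and FANCA-219 had 0.332 and 0.760. FANCA-217, which keeps intron 39, differed most, with 0.186 and 0.666, and was the only FANCA transcript past 2-fold with 0.1 added to each value. In the authors' deposited table FANCA-217 has a log2 fold change of −2.11 with an adjusted p of 3.32e-05, from counts of 50 and 258. FANCA-217, FANCA-201 and FANCA-209 overlap ZNF276, a zinc finger gene on the opposite strand. Its 6 listed transcripts summed to 4.98 in SKOV3_OR and 11.9 in parental SKOV3. Most of that difference is ZNF276-211, with 0.357 and 6.42, which overlaps none of these FANCA transcripts. ZNF276-206, the only listed ZNF276 transcript that reaches FANCA-217, was instead higher, with 1.65 and 0.859. The sources used here do not say that strand was used in counting, and reads of the 2 genes cannot be told apart where they overlap. FANCA without its 3 transcripts over ZNF276 summed to 4.84 and 6.56, a log2 ratio of −0.37.

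FANCC, another core complex subunit, summed to 1.89 in SKOV3_OR and 2.08 in parental SKOV3 over 10 transcripts, a log2 ratio of −0.09. The near-equal sums hold opposite differences in a pair of transcripts that share a start at chr9:95426796, 109.1 kb upstream of the coding transcript FANCC-201. The shorter, FANCC-203, has 2 exons, none shared with FANCC-201, and was 1.19 in SKOV3_OR and 0.441 in parental SKOV3. The longer, the assembled FANCC-OT1, was 0.313 and 1.02. Together they came to 1.51 and 1.46, a log2 ratio of 0.03, but a sum of values per locus length does not weigh them by count. Their loci are 11963 and 31954 bases long. The counts were 676 in SKOV3_OR and 362 in parental SKOV3 for FANCC-203, and 473 and 2234 for FANCC-OT1. With values multiplied by locus length the log2 ratio of FANCC was −0.49. FANCC-203 made up 63.1% of the summed value in SKOV3_OR and 21.2% in parental SKOV3, and FANCC-OT1 16.5% and 49.1%. The authors' deposited table gives log2 fold changes of 1.15 and −1.99 for them, with adjusted p-values of 0.0162 and 1.55e-05. How reads were assigned between transcripts over the same bases was not tested. FANCC-OT1 also overlaps AL161729.3, a lincRNA on the same strand with 0.134 and 0.0431.

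The remaining 8 FANCC transcripts summed to 0.386 and 0.616, and none reached 0.2 in either library. FANCC-215 was the highest of its gene by the authors' deposited table, with a log2 fold change of 2.62 and values of 0.187 and 0.0249. FANCC-219 was the lowest there, at −12.14, with values of 0.00266 and 0.0830 and counts of 0 and 614. Of the 10 transcripts 8 were lower and 2 higher in the resistant library.

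FANCI and FANCD2 form the clamp to which the core complex attaches ubiquitin. FANCI was the highest member, with 30.1 in SKOV3_OR and 17.1 in parental SKOV3, and its mean exceeded that of 96.1% of expressed genes. Its log2 ratio of 0.78 exceeded that of 85.0% of them. Most of the sum is FANCI-212, with 25.6 and 13.3, or 85.1% and 78.1% of the gene. This transcript of 24 exons and 4663 bases, at chr15:89278687-89317128, has 22 exons identical to exons of FANCI-202. It shares 72.1% of its bases with coding exons, and the remaining 1300 are the retained intron 16 shown above. By its annotated exons FANCI-212 is therefore largely sequence that the mRNA also holds. Where its reads lie, and how reads were assigned between it and the mRNA, was not tested. The authors' deposited table gives FANCI-212 a log2 fold change of 0.66 with an adjusted p of 0.186.

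The other 6 FANCI transcripts summed to 4.47 in SKOV3_OR and 3.74 in parental SKOV3, a log2 ratio of 0.21, with 4 higher and 2 lower. FANCI-206, which begins within that retained intron, was 0.942 and 1.68. FANCI-215 and FANCI-207 lie over the first exons and pointed in opposite directions, with 1.37 and 0.658 for FANCI-215 and 0.799 and 1.18 for FANCI-207. FANCI-211, a processed transcript over the last exons at chr15:89307859-89316426, was 0.949 in SKOV3_OR and 0.0424 in parental SKOV3, a ratio of 22.4. Its counts were 385 and 25, and the authors' deposited table gives a log2 fold change of 4.19 with an adjusted p of 7.96e-15. FANCI-216 had the highest deposited log2 fold change of the gene, 10.61 in the authors' deposited table, from counts of 178 and 0 although it lists 0.249 and 0.0581.

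By sum, the FANCI difference lay in transcripts that run over POLG, the gene of the mitochondrial DNA polymerase on the opposite strand. This split was chosen after the data were seen. FANCI-212, FANCI-211 and FANCI-210 overlap it and summed to 26.7 in SKOV3_OR and 13.5 in parental SKOV3, a log2 ratio of 0.93. The 4 transcripts that do not overlap it summed to 3.36 and 3.58, a log2 ratio of −0.07. Among those 4, FANCI-215 and FANCI-216 were higher in the resistant library and FANCI-206 and FANCI-207 were lower. POLG itself summed to 20.9 and 9.35 over 7 listed transcripts. Of these only POLG-206 lies over FANCI, at its 3′ end, with 3.82 and 0.889. The largest, POLG-224 (8.22 and 3.44) and POLG-219 (7.57 and 3.92), lie beyond the end of FANCI. Of the 4663 exonic bases of FANCI-212, 1515 lie within the POLG locus. Reads of the 2 genes cannot be told apart there, and the part of POLG in the FANCI values was not tested.

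FANCD2 summed to 0.921 in SKOV3_OR and 1.09 in parental SKOV3 over 6 transcripts, a log2 ratio of −0.12. Its mean of 1.0035 lay just above the level used to call a gene expressed. FANCD2-212 had the largest mean, with 0.183 and 0.342. FANCD2-207 was the highest by the authors' deposited table, with a log2 fold change of 0.69, an adjusted p of 0.245 and values of 0.333 and 0.169. FANCD2-209 was the lowest there, at −8.50, with values of 0.00613 and 0.0881 and counts of 0 and 49. FANCD2-208 was the only FANCD2 transcript past 2-fold with 0.1 added to each value, with 0.0166 and 0.194.

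**Figure D2:**
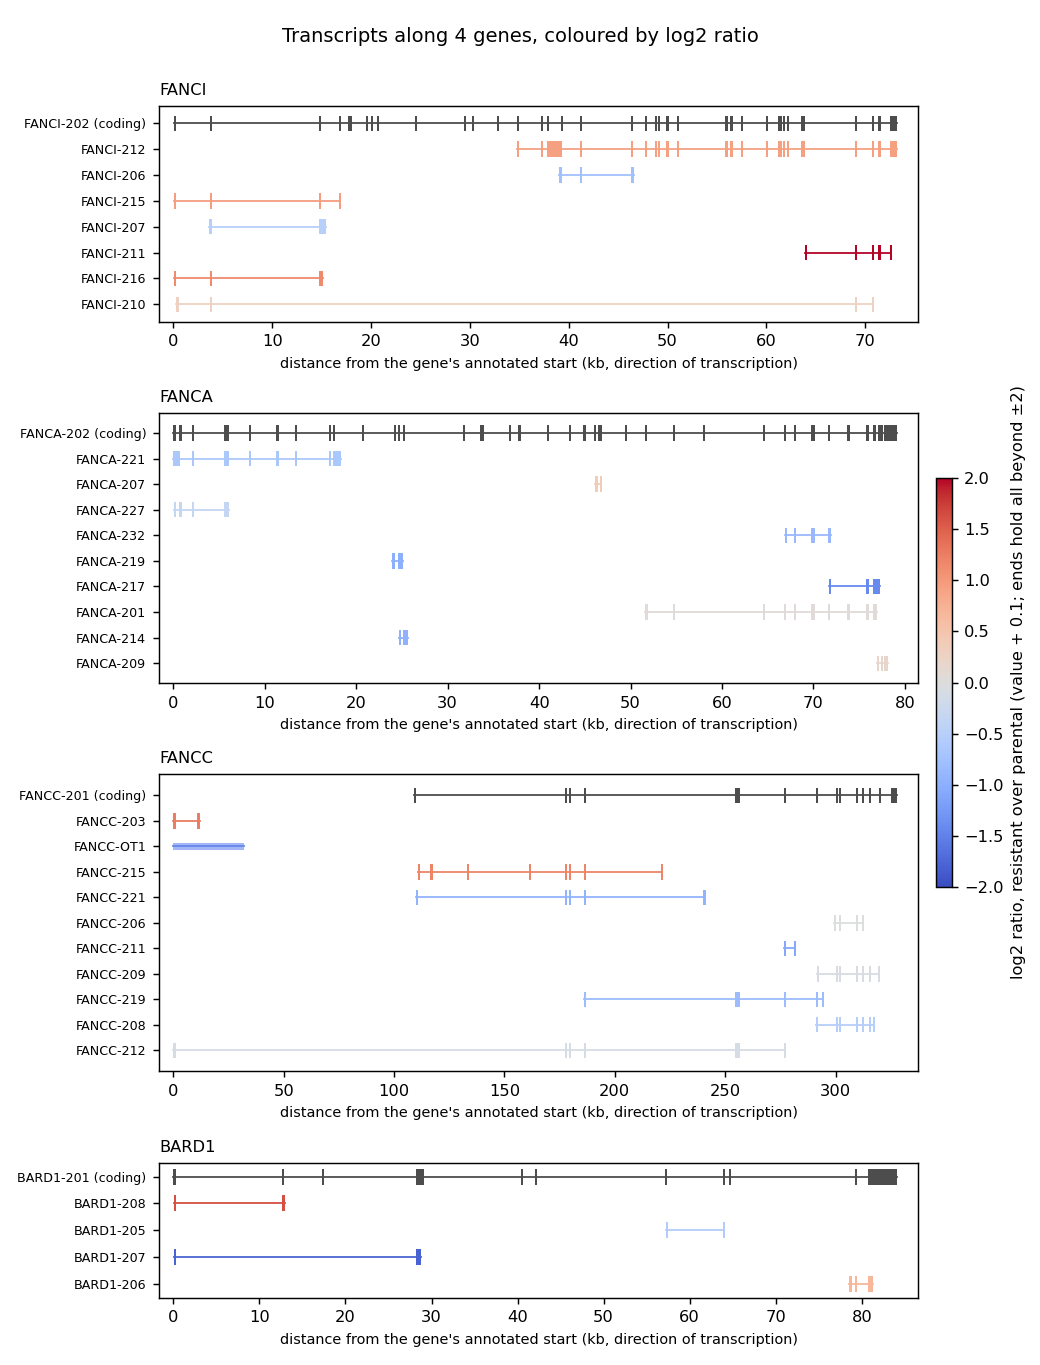
Listed transcripts of FANCI, FANCA, FANCC and BARD1 along each gene, by distance from the annotated gene start in kb, below a coding reference transcript in grey; ticks are exons, drawn at a minimum width (FANCC-OT1 is a band because the annotation holds no exons for it), and the colour is the log2 ratio with 0.1 added to each value. FANCC-203 and FANCC-OT1 share a start and have opposite colours, as do BARD1-208 and BARD1-207 over the first exons of BARD1.

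BRCA1, which with BARD1 forms a ubiquitin ligase that acts early in homologous recombination, summed to 0.701 in SKOV3_OR and 0.151 in parental SKOV3 over 3 transcripts, a ratio of 4.63. With 1 added to each value the log2 ratio was 0.56. Most of the difference is BRCA1-OT1, with 0.415 and 0.0422 and counts of 227 and 0, for which the authors' deposited table gives a log2 fold change of 10.96. BRCA1-OT1 carries the BRCA1 symbol in the deposited table but lies at chr17:43158998-43170516, from 45033 to 33515 bases upstream of the start of the coding transcript BRCA1-210. It lies wholly within AC060780.1, a lincRNA locus on the same strand, whose own 3 listed transcripts summed to 0.0587 and 0.0915. It also touches NBR1 on the opposite strand, an autophagy receptor gene with 2.10 and 2.28. Within the span of BRCA1-210, BRCA1-211 had 0.219 and 0.0989, with counts of 40 and 26 and an adjusted p of 0.235 in the authors' deposited table. BRCA1-229 had 0.0670 and 0.0102, with counts of 20 and 0.

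BARD1 summed to 0.828 in SKOV3_OR and 0.706 in parental SKOV3 over 4 transcripts, a log2 ratio of 0.10, and again its transcripts differed in opposite directions. BARD1-208, a retained-intron transcript over the first 2 exons at chr2:214796794-214809660, was 0.588 and 0.126, and the authors' deposited table gives it a log2 fold change of 1.94 with an adjusted p of 6.01e-05. BARD1-207, which starts within the same exon, was 0.0173 and 0.306, with counts of 0 and 603. The share of BARD1-208 in the gene was 71.0% in SKOV3_OR and 17.8% in parental SKOV3, and that of BARD1-207 was 2.09% and 43.3%. Together they came to 0.606 and 0.431, again as values per locus length, with loci of 12867 bases for BARD1-208 and 28774 for BARD1-207. The counts of BARD1-208 were 358 in SKOV3_OR and 111 in parental SKOV3. With values multiplied by locus length the log2 ratio of BARD1 was −0.26, so its direction depends on this choice. BARD1-205 had 0.146 and 0.265, and BARD1-206 0.0762 and 0.00952.

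**Figure D3:**
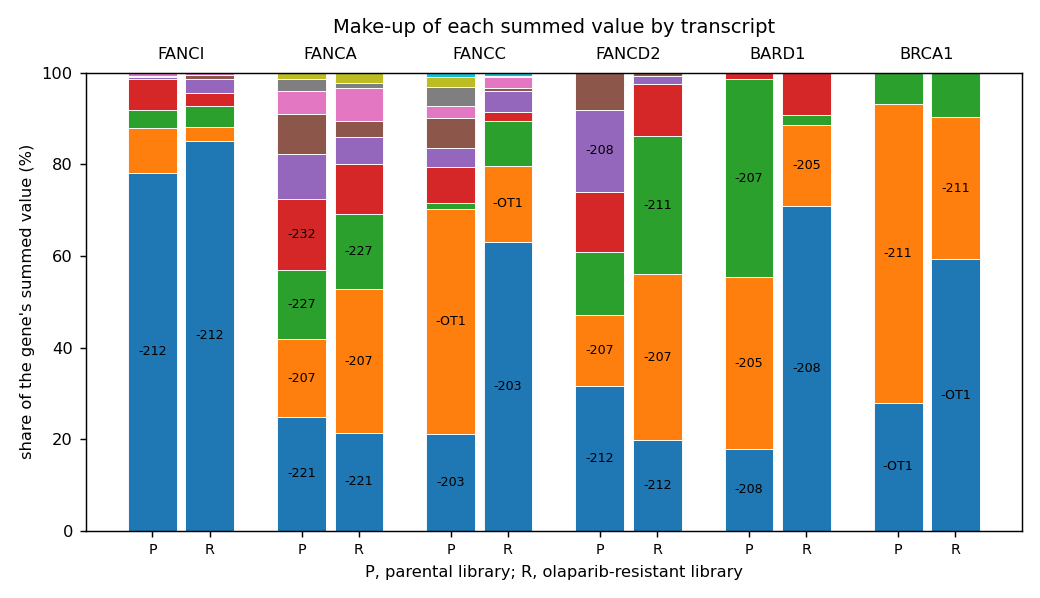
Share of each gene's summed listed value (%) held by each of its transcripts in the parental (P) and resistant (R) library. FANCI-212 holds most of FANCI in both, while the leading transcript of FANCC changes from FANCC-OT1 at 49.1% to FANCC-203 at 63.1%, and that of BARD1 from BARD1-207 at 43.3% to BARD1-208 at 71.0%.

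PALB2, which links BRCA1 to BRCA2, was listed as the single processed transcript PALB2-205 at chr16:23636035-23641301. Its value was 0.717 in SKOV3_OR and 0.917 in parental SKOV3, with counts of 179 and 331. The authors' deposited table gives it a log2 fold change of −0.64 with an adjusted p of 0.227. BRCA2 was at the bottom of the range, with a sum of 0.00829 and 0.00779 over 2 transcripts. BRCA2-205 had counts of 1 and 1, and BRCA2-207 had counts of 4 and 0, so that a difference was not detectable at this level. In order of mean value the members ran FANCI, FANCA, FANCL, FANCC, FANCD2, PALB2, BARD1, BRCA1 and BRCA2, and without replicates no spread separates neighbours in that order.

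By transcript, 19 of the 43 had a higher and 24 a lower value in the resistant library. The same split over all transcripts is not given here, so whether the members differ from the table in this is not shown. This limit holds also for the splits within single genes above. With 0.1 added to each value, 7 of the 32 transcripts with a mean of at least 0.1 were at least 2-fold higher, where 23.0% of all such transcripts were. At least 2-fold lower were 4 of the 32, where 13.7% of all were, and past 2-fold in either direction 11, where 36.7% of all were. By the deposited log2 fold changes, 11 of the 32 were at least 2-fold lower (34.4%, against 21.6% of all) and 7 at least 2-fold higher (21.9%, against 25.1%). The 7 higher transcripts by value were FANCI-211, FANCI-216, FANCL-209, FANCC-203, FANCC-215, BARD1-208 and BRCA1-OT1, and the 4 lower ones FANCA-217, FANCC-OT1, FANCD2-208 and BARD1-207. FANCC and BARD1 held transcripts past 2-fold in both directions, as did 20.0% of the 6556 genes with at least 2 transcripts past the filter.

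**Figure D4:**
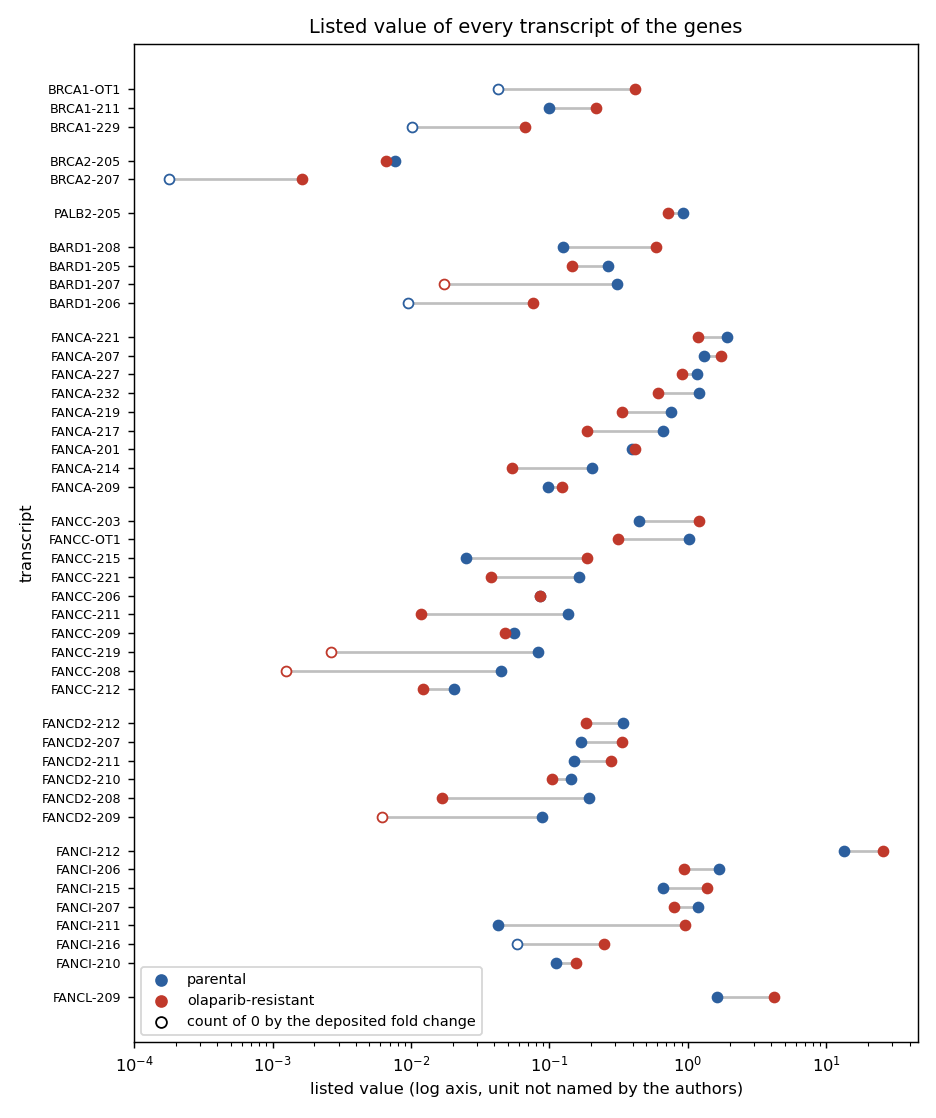
Listed value of each of the 43 transcripts in the parental (blue) and resistant (red) library on a log axis, grouped by gene, with open circles where the count behind the deposited fold change is 0. FANCI-212 stands far above the others, and the widest gaps, such as those of FANCC-208 and FANCC-219, mostly end in an open circle; FANCI-211 is wide with both counts above 0.

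Listed values and deposited fold changes did not always rest on the same quantities. For 42 of the 43 transcripts a pair of whole numbers was found that gives the deposited fold change, and FANCI-212 was the exception. A count of 0 stood beside a listed value above 0 for 4 transcripts in the resistant library, where 11.4% of all transcripts had a count of 0, and for 5 in the parental library, where 10.9% had (22.3% in either). Over the whole table the median of the deposited log2 fold change minus the log2 ratio of the listed values was −0.28, a common offset. After this offset was allowed for, the 2 quantities lay more than 0.3 apart for 11 of the 43 member transcripts, against 27.4% of all transcripts. These 11 include BRCA1-OT1, BARD1-207, FANCI-216 and, through the offset, FANCD2-208 (−3.54 by value and −3.47 in the authors' deposited table), but neither FANCL-209, FANCI-211 nor any FANCA transcript.

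Of 45 other names in the pathway, 36 were listed and 23 expressed. At least 2-fold higher were 2 of the 23 and none was at least 2-fold lower, beside the shares of 8.50% and 4.37% over all expressed genes. The median log2 ratio was 0.07, with 15 above 0 and 8 below. Both genes past 2-fold act in homologous recombination. RAD51C was 8.15 in SKOV3_OR and 2.48 in parental SKOV3, a log2 ratio of 1.40, and RAD51B was 4.09 and 1.40, a log2 ratio of 1.08. All 5 expressed genes of the recombination list, RAD51C, RAD51B, RAD52, RAD51AP1 and XRCC3, were above 0, as were 3568 of all 5767 expressed genes, and their median was 0.90 beside 0.16 over all.

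Nearest to 2-fold among the others were RAD52, a strand-annealing protein, with 3.00 and 1.14, and REV1, a translesion polymerase, with 11.1 and 6.12. On the lower side they were CENPX, a DNA-binding histone-fold protein of the core complex, with 22.7 and 44.5, and BAP1, a deubiquitinase that binds BRCA1, with 0.834 and 2.07. The 4 expressed names of the core complex list had a median log2 ratio of −0.05. The 8 of the nuclease, ligase and translesion list had a median of 0.02, and the 6 of the list of BRCA1 and BRCA2 partners 0.06. These values too come from transcripts without an open reading frame where the annotation gives a type.

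**Figure D5:**
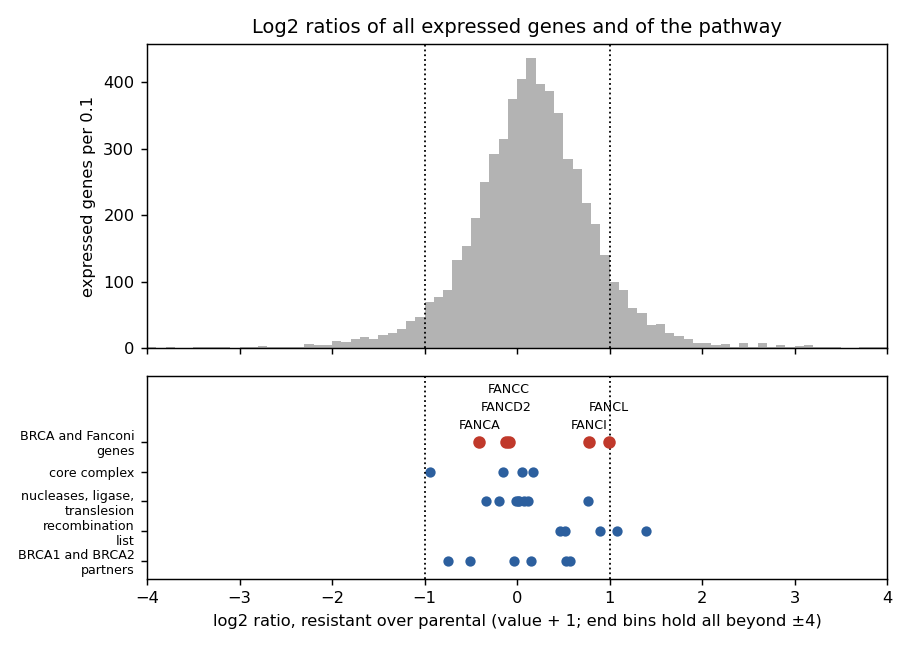
Log2 ratio, resistant over parental with 1 added to each value, of all 5767 expressed genes (histogram, top) and of the expressed members and other pathway genes by list (points, bottom), with dotted lines at 2-fold. No member is past 2-fold and FANCL lies at the line with 0.995, while RAD51C and RAD51B lie beyond it.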

How the data were processed

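The deposited table lists a value per transcript for each of the 2 libraries, in a unit named neither by the header nor the labels, and loci that match GRCh38 for 98.5% of the 43558 transcripts found in GENCODE release 29. Beside the values the authors deposited, per transcript, their log2 fold change and its p-value, raw and adjusted, per the file headers; which test they used is not given in the sources read. HISAT2 and StringTie are named in the submitters' processing notes, which also name the mouse build mm10. A second deposited list of 20 transcripts was not used.

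Values were summed by gene symbol, and log2 ratios were taken with 1 added for genes (mean of at least 1) and 0.1 for transcripts (mean of at least 0.1), using Python 3.11.15 and pandas 2.3.3. Whole-number count pairs were recovered from the deposited log2 fold changes with constants of 0.114 (resistant) and 0.136 (parental) for 95.95% of transcripts. The search was checked on data simulated as ratios of counts with such constants added. That check cannot show that the deposited fold changes were made in this way. The recovered counts need not be reads. Depth is unknown, and no test was run.

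All members are named, with each transcript of at least 0.5 in either library or with the largest mean of its gene, and the highest and lowest by deposited fold change. Of the other pathway genes, those past 2-fold and the 2 nearest in each direction are named. Transcripts named beyond this rule were chosen after their values were seen. The members and lists were chosen with earlier results of these data known. Alternatives covered the pseudocount, filter, scaling, length and choice of transcripts.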

Additional observations from a re-analysis of the deposited data

How the results depend on the processing

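No paired analysis was possible because each group has 1 library. A reversal was called only for a gene past 2-fold in the main setting, and no member was, so none could be found. The log2 ratios of FANCI, FANCC, BARD1, FANCD2 and BRCA2 did change sign under some settings. The cause of each shift below was not tested. With 0.1 added to each value 1 member, FANCL, was at least 2-fold higher, as were 957 of all genes, while 434 of all genes and 1 other pathway gene were at least 2-fold lower. With 5 added, 104 of all genes were higher and 68 lower, and 0 other pathway genes were higher. With the resistant library divided by the median ratio, 315 of all genes were higher and 347 lower, and 1 other pathway gene was higher and 1 lower. In that setting 7 of 32 member transcripts were lower, where 16.1% of all transcripts were. With the transcript of largest mean alone, the median of the 3 members left was 0.89. There 4 of 16 other pathway genes were higher and 1 lower, where 496 of all 4108 genes were higher and 326 lower. With values multiplied by locus length 4 of 23 other pathway genes were higher, as were 690 of all 5767 genes. The members' median turned above 0 with values multiplied by locus length (0.01), with transcripts whose value ratio and deposited fold change differ beyond the common offset left out (0.37) and without a filter (0.00).

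Among member transcripts, none was past 2-fold with 1 added (0 higher, 0 lower), where 3.16% and 2.08% of all transcripts were. With 0.01 added, 7 of 32 were lower, where 17.1% of all were. At a mean of at least 0.5, 2 of 13 were higher and 1 lower, where 22.5% and 12.7% of all were. By the deposited log2 fold change 11 of 32 were lower, where 21.6% of all were. By gene, alternatives spanned −0.07 to 0.90 for FANCI, 0.48 to 1.33 for FANCL, −0.84 to 0.61 for FANCC, −0.35 to 0.50 for BARD1 and 0.15 to 1.67 for BRCA1. The settings that leave out assembled transcripts, the largest transcript or those over another gene, and the one per exonic length, were chosen after seeing the data.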

Other observations

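The 4 member values of the resistant library that stand beside a count of 0, those of BARD1-207, FANCC-208, FANCC-219 and FANCD2-209, are printed with more than 6 decimals. Over the whole table this held for all 5453 resistant values beside a count of 0 and for 13 of the 42439 other resistant values. It held for 0 of the 5231 parental values beside a count of 0.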
